A study of Rattus norvegicus with 6 samples.

Results

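The genes described here encode the proteins that end signalling by G protein-coupled receptors, namely regulators of G protein signalling (RGS proteins) and the beta-arrestins. They were the probe sets whose platform annotation named exactly 1 gene out of a list of 10, made up of 8 RGS genes (Rgs2, Rgs3, Rgs4, Rgs5, Rgs10, Rgs12, Rgs14 and Rgs19) and both beta-arrestin genes (Arrb1 and Arrb2). Of the 8740 probe sets in the deposited table, 7 met this rule, and they read 6 of the 10 genes: Rgs4, Rgs12, Rgs14, Rgs19, Arrb1 and Arrb2. Arrb2 was read by 2 probe sets that carry the same sequence accession. Rgs2, Rgs3, Rgs5 and Rgs10 had no probe set that met the rule and were not analysed here. None of the listed genes is a receptor kinase, so the kinases are given below as neighbours in the pathway.

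The 6 samples were primary cultures of cardiac fibroblasts grown from heart ventricles of Sprague-Dawley rats aged 1 to 2 days. The 3 control cultures received water, and the other 3 received pertussis toxin (PTX) for 24 h. PTX, made by Bordetella pertussis, ADP-ribosylates alpha subunits of the Gi and Go families, so that receptors can no longer activate them. Its dose is not stated in these sources. RNA of every culture went onto a separate 1-colour Affymetrix array, and the question was which of these regulators were measurable and whether any differed between PTX and water. Whether the cultures of a group stem from separate cell preparations is not in the labels, so p-values measure just the spread among these cultures, and that spread may be technical.

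A receptor activates a G protein by making its alpha subunit exchange GDP for GTP, and the signal lasts until that GTP is hydrolysed. RGS proteins bind the active alpha subunit and speed up this hydrolysis, mostly on subunits of the Gi, Go and Gq families. At the receptor itself, G protein-coupled receptor kinases phosphorylate the activated receptor, and beta-arrestins then bind it, block further coupling and link it to clathrin for uptake. In heart cells, RGS proteins are known for restraining signals of angiotensin, endothelin and muscarinic receptors, and PTX acts on the Gi and Go subunits that many of them target.

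Median signals of the arrays ran from 63.1 to 68.85, and 3 arrays a group limit the precision. Control replicate 1 stood apart, with correlations to the other arrays of 0.952 to 0.960 on the log2 scale against 0.978 to 0.985 among the other 5, so each tested member is also given without it. All 12 fibroblast markers listed for the check of the cell type gave signals above the low-signal limit used for testing, and Col3a1, a fibrillar collagen, had a mean of 20222 ± 1932 in the controls (SD, n = 3). Of 12 cardiomyocyte markers 10 were above that limit too, and Myl2, a ventricular myosin light chain, had 52335 ± 15205 (SD, n = 3). The cultures thus held transcripts of both cell types, and signals of the regulators cannot be assigned to either. The fibroblast markers had log2 changes of both signs, 7 of 12 positive, with a median of 0.11, and their summed signals overlapped. Of the 10 tested cardiomyocyte markers, 8 were negative, with a median of -0.21, or -0.10 without control replicate 1. The summed signal of all 12 was 254311 to 333461 in the controls and 220536 to 249274 with PTX, without overlap. Without control replicate 1 the control sums were 254311 to 262218. The part of this difference in the regulator signals was not tested. No marker of either list was called, the smallest limma adjusted p being that of Thy1, a glycoprotein on the fibroblast surface (log2 change -0.97, adjusted p = 0.0743), and of Myh7, a myosin heavy chain (log2 change -0.39, adjusted p = 0.375). Without control replicate 1 the fibroblast markers Thy1 (limma adjusted p = 0.00771) and Lum, a matrix proteoglycan (log2 change 0.74, or 1.10 with all arrays; limma adjusted p = 0.00646), passed. Lum, Postn, a matricellular protein (log2 change 1.07), and Pdgfra, a growth factor receptor (0.36), were higher on every PTX array than on any control array. Thy1, Col1a1 (-0.37) and Vim (-0.26) were lower on every one, as were the cardiomyocyte markers Myh7, Tnnt2 (-0.09) and Tnni3 (-0.28). Over all tested probe sets, 12.0% were higher and 10.6% lower in this way. Of 9 endothelial markers 4 were measured; the growth factor receptors Kdr (-0.04) and Flt1 (-0.20) were tested and not called, and Pecam1 and Vwf were under the limit. In such bulk samples fewer cells of a type and less RNA per cell cannot be told apart.

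Of the 7 probe sets, 6 were bright enough to be tested. The limit was the 40th percentile of the mean log2(signal + 16) over the 6 arrays, which corresponds to a signal of 33.3, and it left 5244 of 8740 probe sets. The probe sets of Rgs4, Rgs12, Rgs14, Rgs19 and both of Arrb2 ranked between the 43.3rd and the 72.2nd percentile of their array in every sample. That of Arrb1 ranked between the 6.42nd and the 15.4th. Detection calls were not used, and a signal depends on the probes as well as on the transcript, so these ranks do not order the genes by abundance.

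**Figure D1:**
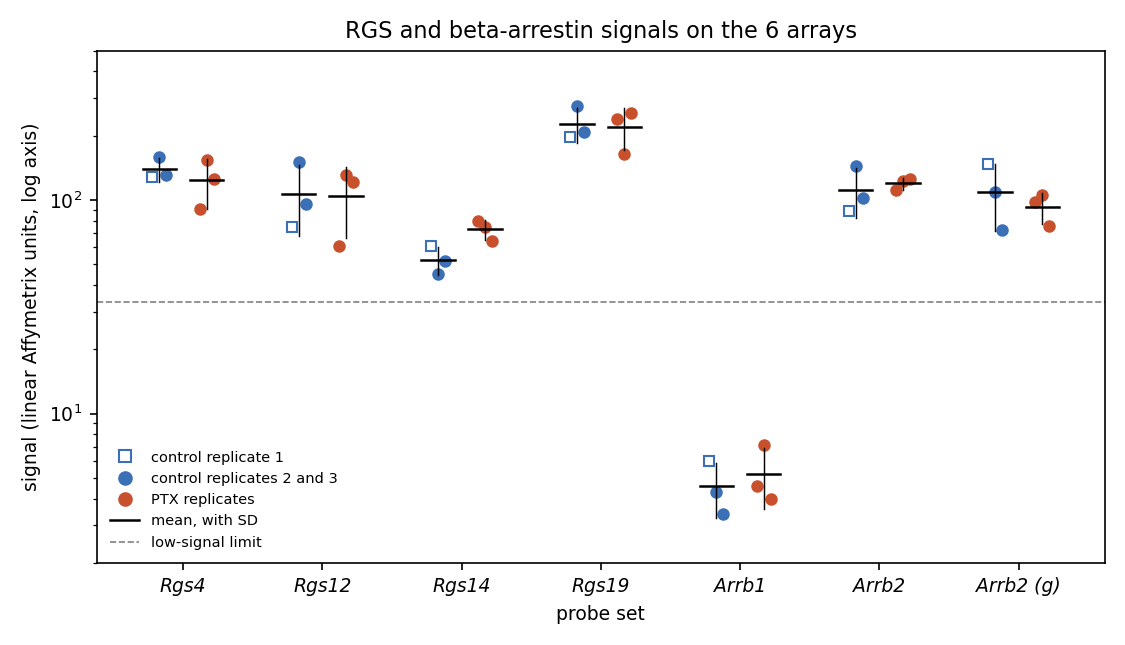
Signal of each RGS and beta-arrestin probe set on each array (log axis, linear Affymetrix units), with the mean and SD of each group of 3 arrays as black lines and the low-signal limit of 33.3 as a dashed line. "Arrb2 (g)" is the second Arrb2 probe set. Only the Rgs14 probe set has PTX points (64.1 to 79.4) that all lie above its control points (44.8 to 60.7), and the Arrb1 points lie far below the limit.

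None of the 6 tested probe sets passed an adjusted p of 0.05 in either direction with limma (0 of 6, and 0 of 6 also at an unadjusted p under 0.05). Over all 5244 tested probe sets, 4 were called, which is 0.0763%, and 660, or 12.6%, had an unadjusted p under 0.05. A count of 0 among 6 does not stand apart from so low a background share, and the intervals below give the range of change around each estimate. Without control replicate 1, where 2.21% of all tested probe sets were called, the members still gave 0 calls. The median log2 change of the 6 was -0.05, with 2 positive and 4 negative. Over all tested probe sets the median was -0.02 with 47.1% positive, and over the 2960 not named rc_, the class to which every member belongs, it was -0.10 with 34.8% positive.

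Rgs14 came nearest to a difference. It encodes a scaffold that joins an RGS domain to Ras-binding domains and to a GoLoco motif, which holds Gi alpha subunits in their GDP form; it is best known from brain and lymphoid cells. Its signals were 60.7, 44.8 and 51.7 in control replicates 1 to 3 and 79.4, 75.1 and 64.1 in PTX replicates 1 to 3. Every PTX value was higher than every control value, although the lowest PTX value exceeded the highest control value by little. The means were 52.4 ± 7.97 and 72.9 ± 7.89 (SD, n = 3 each). The log2 change was 0.38 ± 0.21 (SE), or 1.30-fold, with a 95% interval from 0.935-fold to 1.81-fold, and it did not pass (limma adjusted p = 0.450). By p it ranked 1203rd among the 5244 tested. It was the only one of the 6 tested members whose groups did not overlap, and 22.6% of all tested probe sets had this property, 12.0% with PTX higher. Without control replicate 1 the log2 change was 0.47 (limma adjusted p = 0.394). Over its 16 alternative settings the change stayed positive, from 0.23 to 0.47, with adjusted p from 0.394 to 0.719. With a variance model that had no intensity trend, its interval ran from 1.008-fold to 1.68-fold (limma unadjusted p = 0.0446, adjusted p = 0.417). In that setting 615 of the 5244 tested probe sets had an unadjusted p under 0.05.

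Because Rgs14 is found in leukocytes, the levels of macrophage and leukocyte markers are set beside it. Of 12 such markers 10 were measured, and their summed signal was 3540 to 3580 on the control arrays and 4288 to 5430 on the PTX arrays. Without Lyz2, the brightest, the sums were 1024 to 1410 and 1280 to 1385 and overlapped. That overlap came from control replicate 1, since without this array the control sums were 1024 to 1093, all below those with PTX. Of the 6 bright enough to be tested, 0 passed (1 did without control replicate 1, Fcgr2b), and 3 had every PTX array above the controls, as 12.0% of all tested probe sets did: Lyz2, a lysozyme, with 2381 ± 210.2 and 3445 ± 638, Fcgr2b, an Fc receptor, with 325 ± 28.2 and 612 ± 31.1, and Cd14, a receptor for endotoxin, with 223 ± 7.92 and 249 ± 19.8 (SD, n = 3 each). The complement genes C1qb and C1qc had log2 changes of -0.39 and -0.24 with overlapping groups, and Cd74, the invariant chain, was under the low-signal limit and lower on every PTX array (22.0 ± 6.88 and 4.17 ± 1.70). The defining markers Ptprc, Csf1r and Itgam were under the low-signal limit. The part of these cells in the Rgs14 values was not tested.

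Rgs4 is a small RGS protein, little more than an RGS domain with a short amino-terminal helix, that acts on Gi, Go and Gq subunits. Its signals were 127.9, 159.2 and 130.5 on the control arrays and 90.3, 154.7 and 125.4 on the PTX arrays. The groups overlapped, and PTX replicate 1 was the low one. Means were 139.2 ± 17.4 and 123 ± 32.2 (SD, n = 3 each). The log2 change was -0.18 ± 0.21 (SE), with an interval of the fold from 0.628 to 1.248 (limma adjusted p = 0.710). Without PTX replicate 1 it was 0.01, and without control replicate 1 it was -0.23. Markers of pericytes and smooth muscle, cells in which Rgs4 and Rgs5 are commonly found, were measured for 8 of 12 genes, with 0 called. Their summed signal was 11061 to 16044 in the controls and 14064 to 15099 with PTX; without control replicate 1 the lowest control sum was 13985. Acta2, smooth muscle actin, had a log2 change of 0.59 (limma adjusted p = 0.541), or 0.03 without control replicate 1. Tagln, an actin-binding protein, had -0.35 (limma adjusted p = 0.418), or -0.19 without that array. Its signal was lower on every PTX array than on any control array, as for 10.6% of all tested probe sets.

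Rgs12 is the close relative of Rgs14, with the same RGS, Ras-binding and GoLoco parts and further PDZ and phosphotyrosine-binding domains. It had the widest spread of the tested members, with 75.0, 150.8 and 95.9 in the controls and 61.1, 130.8 and 122.0 with PTX. The groups overlapped over most of their range. The coefficient of variation was 36.5% in the controls and 36.3% with PTX, against 15.2% and 10.8% for Rgs14. Means were 107 ± 39.2 and 105 ± 38.0 (SD, n = 3 each). The log2 change was -0.04 ± 0.32 (SE), the interval of the fold ran from 0.581 to 1.63, and the test was not passed (limma adjusted p = 0.965). Single arrays set its sign: the log2 change was 0.20 without control replicate 2, 0.25 without PTX replicate 1 and -0.24 without control replicate 1. The direction of Rgs12 could therefore not be read from these arrays.

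Rgs19, also called Gaip, was found through its binding to a Gi alpha subunit and carries a cysteine string that anchors it to membranes. Its signals were 196.8, 275.3 and 209.3 in the controls and 240.0, 164.2 and 256.6 with PTX. The groups overlapped. Means were 227 ± 42.2 and 220.3 ± 49.3 (SD, n = 3 each). The log2 change was -0.05 ± 0.21 (SE), with an interval of the fold from 0.688 to 1.36 (limma adjusted p = 0.925). It was 0.09 without control replicate 2, 0.13 without PTX replicate 2 and -0.14 without control replicate 1.

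Arrb2 encodes beta-arrestin 2, which binds phosphorylated receptors broadly and also serves as a scaffold for kinases. The first of its 2 probe sets had 88.4, 144.4 and 101.8 in the controls and 110.9, 122.6 and 125.3 with PTX. The second had 147.7, 108.9 and 72.0 in the controls and 98.1, 105.1 and 75.4 with PTX. The 2 probe sets did not order the control arrays alike: control replicate 1 was the lowest on the first and the highest on the second. On both, the PTX arrays lay within the range of the controls. The log2 change was 0.11 ± 0.20 (SE) on the first, with an interval of the fold from 0.779 to 1.498 (limma adjusted p = 0.811). On the second it was -0.17 ± 0.26 (SE), with an interval from 0.586 to 1.35 (limma adjusted p = 0.766). Without control replicate 1 these became -0.02 and 0.04, so each probe set turned its sign and the probe sets still differed in sign.

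Arrb1 encodes beta-arrestin 1, the close relative of Arrb2 with the same role at receptors. Its probe set gave 6.0, 4.3 and 3.4 in the controls and 4.6, 7.1 and 4.0 with PTX. All 6 signals lay far under the low-signal limit and the groups overlapped. No change can be read from signals this low, and a low signal of 1 probe set does not show that the transcript was missing. In a fit with no filter the log2 change was 0.05 (limma adjusted p = 0.928).

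Across the members, no array was uniformly high or low. Control replicate 2 gave the highest signal for 4 of the 7 probe sets (Rgs4, Rgs12, Rgs19 and the first of Arrb2) and the lowest for 1, Rgs14. In the fit to all 6 arrays, no bound of a 95% interval of the 6 tested probe sets reached a log2 change of 1 in either direction. The lowest bound was the 0.581-fold of Rgs12 and the highest the 1.81-fold of Rgs14. These intervals are not adjusted for the number of probe sets, and they hold on the log2(signal + 16) scale, which understates changes of low signals. A few alternatives went past that size: the upper bound of Rgs14 was 2.10-fold with a pseudocount of 1 and 2.05-fold without PTX replicate 3, and the lower bound of Rgs12 was 0.474-fold without PTX replicate 2 and 0.477-fold without PTX replicate 3.

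**Figure D2:**
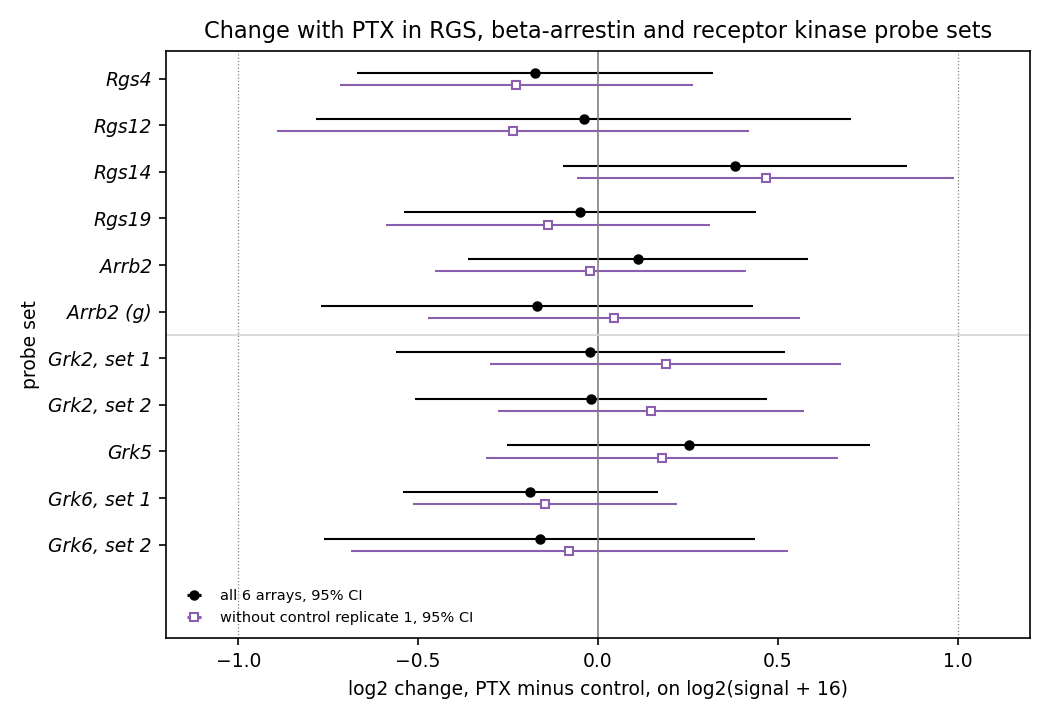
Log2 change, PTX minus control, on the log2(signal + 16) scale for each tested RGS and beta-arrestin probe set (above the grey line) and receptor kinase probe set (below it), with 95% intervals from limma, for all 6 arrays (black circles) and without control replicate 1 (open squares). Every interval includes 0. The Rgs14 change is the largest of the members, at 0.38 with all arrays and 0.47 without control replicate 1. Both Arrb2 and both Grk2 probe sets change sign without that array.

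The receptor kinases phosphorylate activated receptors and so prepare them for arrestins. Of 7 kinase genes listed, 6 were measured, and those of Grk2, Grk5 and Grk6 were bright enough to be tested on their brightest probe set; 0 of these 3 passed, in either direction. Grk2, the kinase brought to the membrane by free beta-gamma subunits, had 134 ± 31.5 in the controls and 131 ± 22.7 with PTX (SD, n = 3 each). The log2 change was -0.02 on each of its 2 probe sets (limma adjusted p = 0.977 for both). Without control replicate 1 it was 0.15 on the brighter and 0.19 on the other (limma adjusted p = 0.761 and 0.729). Grk5, a kinase held at the membrane by lipids, had 101.3, 90.5 and 160.4 in the controls and 133.9, 138.2 and 144.9 with PTX. The PTX arrays were close to each other and lay within the range of the controls (log2 change 0.25, limma adjusted p = 0.608). Grk6, of the same subfamily, had 171.3, 158.5 and 154.6 in the controls and 125.8, 142.2 and 152.2 with PTX on its brighter probe set. There the groups did not overlap, PTX being lower, as for 10.6% of all tested probe sets, and the test was not passed (log2 change -0.19, limma adjusted p = 0.591). The second Grk6 probe set overlapped, with -0.16 (limma adjusted p = 0.778). Grk1, the kinase of rod photoreceptors, Grk3 and Grk4 were under the low-signal limit, which is set on the mean log2(signal + 16) over all 6 arrays. Their linear mean signals in the controls were 16.2 ± 15.5, 35.1 ± 23.6 and 31.4 ± 26.3 (SD, n = 3 each). A linear mean in 1 group can lie above 33.3 for a probe set under the limit, as for Grk3.

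Among other RGS and RGS-like genes, 8 of 16 listed were measured, 3 were tested and 0 passed. Axin1, a scaffold of Wnt signalling with an RGS-like domain, had 452 ± 60.6 and 361 ± 31.0 (SD, n = 3 each; log2 change -0.31, limma adjusted p = 0.440). Rgs22 had 50.2 ± 7.36 and 30.1 ± 15.9 (log2 change -0.58, limma adjusted p = 0.450), the third being Gnb5, the beta subunit that partners RGS proteins of the R7 family (-0.07). Rgs1 and Rgs18, RGS proteins of blood cells, and Rgs8 and Rgs9, known from nervous tissue, were not bright enough to be tested. Of these, Rgs18 had 7.1, 27.3 and 36.0 in the controls and 41.1, 56.4 and 38.3 with PTX, at signals where the arrays are noisy. All PTX values were above all controls, the lowest by little, as for 12.0% of all tested probe sets.

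**Figure D3:**
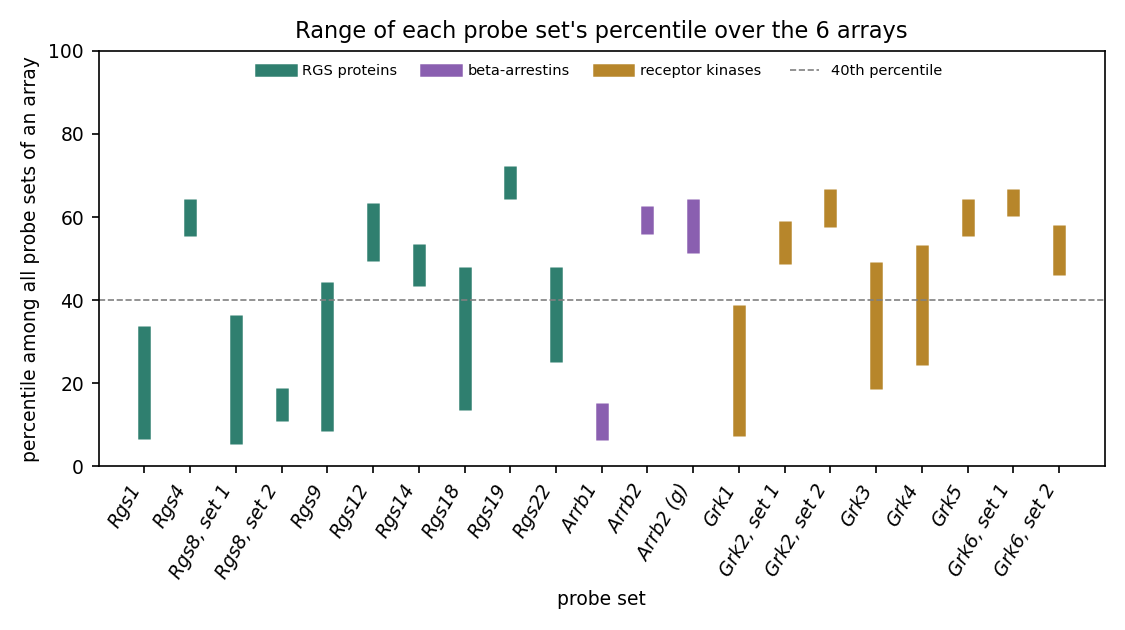
Range over the 6 arrays of the percentile of each RGS, beta-arrestin and receptor kinase probe set among all 8740 probe sets of its array, with the 40th percentile as a dashed line. Rgs4, Rgs12, Rgs14, Rgs19, both Arrb2 probe sets and those of Grk2, Grk5 and Grk6 lie above the line on every array; Arrb1 stays at or under the 15.4th percentile.

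The partners of arrestins in receptor uptake, together with the visual arrestins, gave 16 measured genes of 17 listed, of which 11 were tested and 0 passed. Their log2 changes ran from -0.32 to 0.77 with a median of -0.05. Ap2b1 is the subunit of the AP2 adaptor to which beta-arrestins bind. Its brightest probe set had 1030 ± 205.5 in the controls and 811 ± 46.7 with PTX (SD, n = 3 each). There PTX was lower on every array, as for 10.6% of all tested probe sets (log2 change -0.32, limma adjusted p = 0.444). Without control replicate 1 the log2 change of this probe set was -0.17. The other Ap2b1 probe sets had 0.17 and -0.04 with all arrays, with overlapping groups. Ap2a2, another AP2 subunit, had -0.19 (limma adjusted p = 0.610). The 0.77 was that of Arf6, a small GTPase of the endocytic route, and it was -0.17 without control replicate 1. The visual arrestins Sag and Arr3 were under the low-signal limit.

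Among other modulators of G protein activity, 4 of 12 listed genes were measured, 3 were tested and 0 passed. Nucb1, a calcium-binding protein that can bind Gi alpha subunits, had a log2 change of -0.12 (limma adjusted p = 0.689), and Pdcl, a helper in the assembly of beta-gamma subunits, had -0.15 (limma adjusted p = 0.711). A second, dimmer probe set of Pdcl had 0.59 with overlapping groups (limma adjusted p = 0.430).

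The G protein alpha subunits, whether or not RGS proteins act on them, were measured for 8 of 15 genes. Of these, 6 were tested and 0 passed, with log2 changes from -0.26 to 0.07. Gnai1 had 55.5 ± 5.58 and 44.1 ± 9.65 (SD, n = 3 each; log2 change -0.26, limma adjusted p = 0.614). Gnao1 had 1718 ± 370.5 and 1778 ± 99.2 (log2 change 0.07, limma adjusted p = 0.865). Gnai2 had a log2 change of 0.02 on its brightest probe set (limma adjusted p = 0.951). Another had 0.39 with every PTX array above the controls, as for 12.0% of all tested probe sets (limma adjusted p = 0.454). Its remaining probe set had -0.16 with overlapping groups. No list of this pathway thus held a called gene, and none did without control replicate 1.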

How the data were processed

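The deposited values are linear intensities per probe set, made by the authors with GCOS, per the submitters' processing notes, from 1-colour arrays of biotin-labelled cRNA, per the labels' protocols. The GCOS version and scaling target are not given, and detection calls were not used. Their 2% trimmed means were 493 to 495 on every array, so no scaling was added. Groups were read from the sample titles.

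Of 8740 probe sets, 7006 carry 1 gene symbol in the platform annotation. Of these, 6985 were matched by gene identifier to a RefSeq table, used for names only. Signals were taken as log2(signal + 16). The 5244 probe sets at or above the 40th percentile of the mean were fitted with limma 3.58.1 in R 4.3.3 (eBayes with an intensity trend, two-sided, Benjamini-Hochberg over all 5244, threshold 0.05, intervals at 95%). The procedure was also run on simulated data whose changes were larger than any member estimate, so that run does not bear on changes of their size. Outside the members each gene is represented by its brightest probe set.

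All member probe sets and measured receptor kinases are named, with the 2 tested genes of smallest p in each other pathway list and the brightest and smallest-p marker of each cell type; further names were chosen after their values were seen. Members and lists were chosen with earlier results of these data known.

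As alternatives, the pseudocount was set to 1 or 64, the filter was dropped or raised to the 60th percentile, and arrays were scaled to a common median, by quantiles or by cyclic loess. The replicate number was used as a block, and the variance model was run with no trend or with robust estimation. Probe sets named rc_AA799 or rc_AA800 were removed, and each array was left out in turn.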

Additional observations from a re-analysis of the deposited data

How the results depend on the processing

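The count of called members was 0 under all 17 alternatives. The share of all tested probe sets called, 0.0763%, was 0.0381% with a pseudocount of 1 and with quantile normalization, 0.133% with a pseudocount of 64, 0.0343% with no filter, 0.172% with robust variances and 0.161% without the rc_AA799 and rc_AA800 probe sets. It was 0% without a trend and 0% with the replicate block, and 0% to 2.21% with 1 array left out. The other pathway lists gave 0 calls whichever array was left out. Samples of the same replicate number did not deviate together, with correlations of -0.09, -0.11 and -0.01 between control and PTX. Samples of unlike numbers had correlations of -0.05 to 0.10. These few values do not show whether samples of the same number shared a preparation. With 1 array left out, the log2 change ranged from -0.33 to 0.0073 for Rgs4, from -0.24 to 0.25 for Rgs12, from -0.17 to 0.13 for Rgs19, and from -0.021 to 0.29 and from -0.40 to 0.044 for the Arrb2 probe sets; the cause of these turns was not tested. Rgs14 kept its direction. With a 60th percentile filter, Rgs12, Rgs14 and both Arrb2 probe sets were not tested.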
